A study of Mus musculus with 12 samples.

Results

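The 5 genes that encode the subunits of the transcription factor NF-kB, Rela, Rel, Relb, Nfkb1 and Nfkb2, were followed at the level of mRNA in Commd1 knockout and wildtype mouse macrophages before and after lipopolysaccharide (LPS), a component of the bacterial outer membrane. The members were all probes that the array's own gene names assign to these symbols or a synonym. They were 7 of 39429 probes and stood for 5 of 22978 genes tested. Each gene was read by 1 probe except Relb and Nfkb1, which had 2 probes each. All 7 probes were well above background on all 12 arrays.

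Bone marrow cells of 2 Commd1 knockout mice and 2 wildtype mice were grown into macrophages with the growth factor GM-CSF at 20 ng/ml for 10 days. The cells of each mouse were divided into 3 portions: untreated, 3 h of LPS and 24 h of LPS, with Escherichia coli LPS at 10 ng/mL. This gave 6 groups of 2 arrays, 1 array for each mouse and time: knockout untreated, knockout after 3 h, knockout after 24 h, and the same 3 for wildtype. All groups shared the GM-CSF culture. The labels used here give neither the age nor the strain of the mice, nor the cells in which Commd1 was deleted or the deleted stretch. The 2 mice of a genotype are separate animals, per the labels, and this number limits the precision of every value.

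NF-kB proteins bind DNA as dimers and switch on genes of inflammation and cell survival. In resting cells most dimers are held in the cytoplasm by IkB proteins, and LPS, acting through the receptor TLR4, activates a kinase complex that marks IkB for destruction. Rela, Rel and Relb encode subunits with a transactivation domain, while Nfkb1 and Nfkb2 encode long precursors, p105 and p100, which hold back other subunits and are cut to the DNA-binding subunits p50 and p52. RelA, c-Rel and p50 act mainly in this canonical pathway. RelB and p52 act mainly in the non-canonical pathway, which works through the kinase NIK and removes p100. COMMD1 is known to promote the ubiquitin-dependent turnover of RelA protein, and only mRNA was measured here.

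The sequences that carry the measurements are given for the probes whose readouts the results turn on and for the starts of the genes. Probe positions are those of the array design on mm9. The Nfkb2 probe (chromosome 19, 46386146 to 46386285, plus strand) spans 140 genomic bases with its 60 bases. The second Nfkb1 probe (chromosome 3, 135254550 to 135254609, minus strand) is shown because in 1 comparison it passed the test where the first (chromosome 3, 135247621 to 135247680) did not. All bases are in lower case.
Nfkb2 probe: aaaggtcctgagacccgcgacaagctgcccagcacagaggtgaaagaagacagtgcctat
Nfkb1 second probe: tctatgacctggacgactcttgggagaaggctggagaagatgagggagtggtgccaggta

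The Rela probe lies on chromosome 19 (5648070 to 5648129, plus strand). The 2 Relb probes lie on chromosome 7, minus strand (20191722 to 20191781 and 20191773 to 20191832), share 9 bases and so are not independent readouts. The coordinates of the Rel probe (chromosome 11, 23641729 to 23641743, minus strand) cover only 15 of its 60 bases. These positions are mm9 and are not comparable with those of the gene starts that follow.

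Windows around gene starts, from 250 bases before to 50 bases after the start, were taken from RefSeq on GRCm38.p6 for the 3 members listed there (Rel, Rela and Nfkb2), because the subunit genes moved together after LPS. They were searched on both strands for the NF-kB consensus motif of 10 bases, named here only. The motif was present in 2779 of 32851 windows of this length (8.46%), which belonged to 9.55% of 27025 genes. Capitals mark the matches.
Rel, chr11:23770920-23771219, minus strand: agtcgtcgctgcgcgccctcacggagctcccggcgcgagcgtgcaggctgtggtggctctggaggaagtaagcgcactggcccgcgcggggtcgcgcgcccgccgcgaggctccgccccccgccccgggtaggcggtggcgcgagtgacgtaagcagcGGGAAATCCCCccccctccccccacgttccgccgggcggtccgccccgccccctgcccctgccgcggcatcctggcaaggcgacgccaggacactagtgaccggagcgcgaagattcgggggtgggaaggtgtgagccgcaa
Nfkb2, first start, chr19:46304487-46304786, plus strand: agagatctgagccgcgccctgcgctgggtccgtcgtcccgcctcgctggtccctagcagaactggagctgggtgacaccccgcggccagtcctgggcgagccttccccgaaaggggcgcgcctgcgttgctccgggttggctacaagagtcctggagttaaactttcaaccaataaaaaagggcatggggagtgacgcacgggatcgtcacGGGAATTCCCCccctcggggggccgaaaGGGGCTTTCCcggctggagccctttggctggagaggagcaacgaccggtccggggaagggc
Nfkb2, second start, chr19:46305445-46305744, plus strand: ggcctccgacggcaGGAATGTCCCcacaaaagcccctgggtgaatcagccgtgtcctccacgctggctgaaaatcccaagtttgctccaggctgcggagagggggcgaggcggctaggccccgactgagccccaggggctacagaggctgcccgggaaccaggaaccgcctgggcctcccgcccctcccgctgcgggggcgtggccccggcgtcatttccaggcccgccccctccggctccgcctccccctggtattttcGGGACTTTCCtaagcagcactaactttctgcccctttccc
Rela, chr19:5637291-5637590, plus strand: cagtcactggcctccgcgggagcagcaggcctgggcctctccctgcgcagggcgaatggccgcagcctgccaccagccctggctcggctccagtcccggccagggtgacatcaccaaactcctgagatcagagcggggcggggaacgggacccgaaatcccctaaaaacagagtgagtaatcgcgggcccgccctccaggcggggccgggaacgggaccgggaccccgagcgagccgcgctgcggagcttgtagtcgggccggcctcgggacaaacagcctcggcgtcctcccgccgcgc
The Rel window held 2 matches that overlap in all but 1 base at each end. The first Nfkb2 window held 3 matches, 2 of them overlapping in the same way, and the second held 2. A further Nfkb2 window overlaps the second by 65 bases and held 1 match, a site already counted in the second. The Rela window held 0, which says only that these letters are not in it. A match is a description of the sequence, and binding was not measured.

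The arrays were read as log2 of the processed signal minus the array's 75th percentile, so that 0 is the level of a probe at that percentile, and levels of different probes are not set against each other. Commd1 itself stood at -0.50 and -0.01 in untreated knockout cells, against 2.72 and 2.79 in untreated wildtype cells, and was lower in knockout cells by 2.92 to 3.05 on the log2 scale at the 3 times. Each LPS time had its own slide, so time and slide cannot be told apart, and within a slide the genotypes held fixed positions, so genotype and position cannot be told apart. The slope of the spike-in signal was 0.794 to 0.869 on knockout arrays and 0.735 to 0.824 on wildtype arrays. Between 59.2% and 69.3% of probes were above background on knockout arrays and between 65.1% and 72.9% on wildtype arrays. The macrophage list, with 9 of 9 markers above background on all arrays, summed in untreated cells to 373 to 381 on a linear scale in knockout and to 319 to 336 in wildtype. Of the 4 mast cell markers on the array, Cpa3 and Ms4a2 were above background on no array and 1 was on all arrays. Of the 5 T and NK cell markers, Cd3g was above background on no array and 1 was on all arrays.

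LPS raised the mRNA of all 5 subunits within 3 h in both genotypes, and the levels were lower again at 24 h. After 3 h, 5 of 5 rose in knockout cells (median log2 change 2.80, against 0.057 over all genes) and 5 of 5 in wildtype cells (median 2.84, against 0.030). Over all genes tested, 26.4% rose in knockout cells and 23.2% in wildtype cells at that time. At 24 h, 3 of 5 were still above untreated cells in each genotype, Rel, Relb and Nfkb2, where 26% of all genes were higher in knockout and 23.6% in wildtype. Between 3 h and 24 h all 5 fell in both genotypes, beside 32.6% of all genes in knockout and 26.9% in wildtype. A change was counted when limma's moderated test passed an adjusted p of 0.05 (Benjamini-Hochberg over all genes, two-sided). In such bulk RNA, fewer cells with an mRNA and less of it in each cell cannot be told apart. Under other scalings of the arrays the share of passing genes that were higher lay between 36.5% and 64.7% over the 6 LPS comparisons, against 44.7% to 50.7% as reported, and the 5 subunits kept their direction in every LPS comparison in which they passed.

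**Figure D1:**
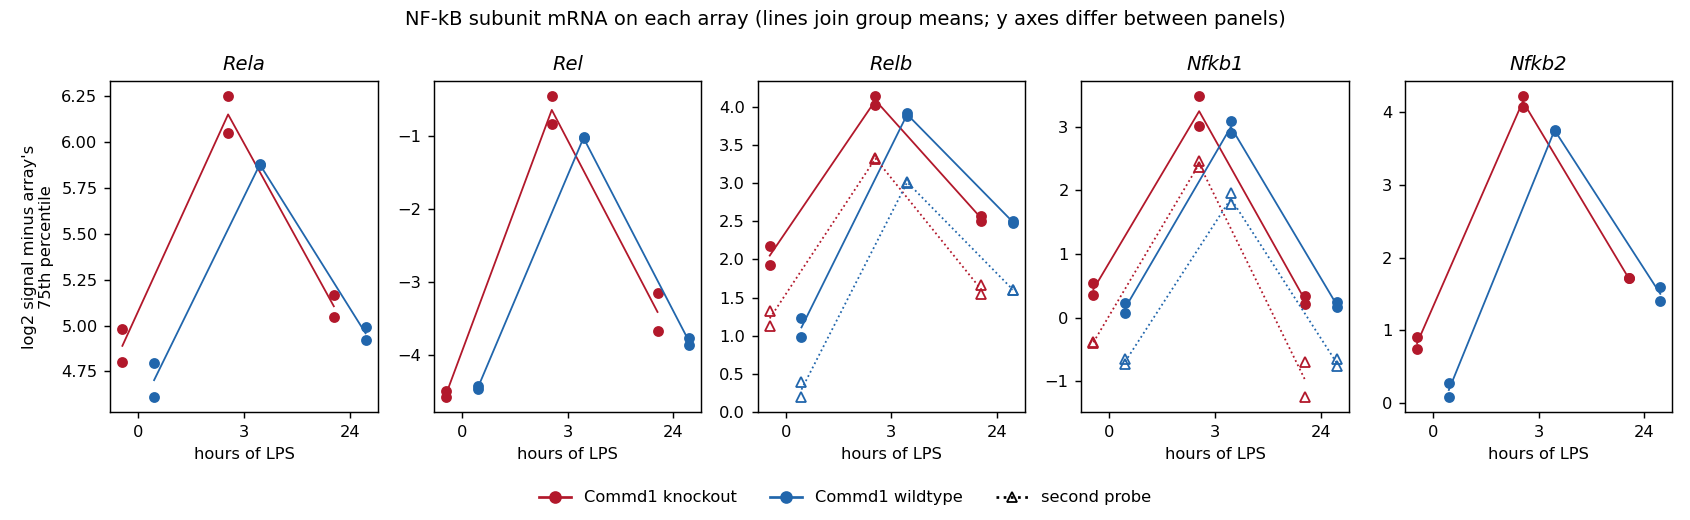
Level of each subunit mRNA on each array (y axis, log2 signal minus the array's 75th percentile; a separate scale for each gene) by hours of LPS (x axis). Points are single arrays, knockout left of wildtype, lines join the group means, and triangles are the second probes of Relb and Nfkb1. Every gene peaks at 3 h, and the untreated knockout points of Relb and Nfkb2 lie above the wildtype points.

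Among the transactivating subunits, Rela, which encodes the main partner of p50 in the canonical pathway, rose least at 3 h. In knockout cells it stood at 4.98 and 4.80 untreated, 6.25 and 6.05 after 3 h and 5.05 and 5.16 after 24 h. Wildtype levels were 4.80 and 4.61 untreated, 5.87 and 5.88 after 3 h and 4.99 and 4.92 after 24 h. All 3 h arrays were above all others, and the 24 h arrays lay just above the untreated arrays of the same genotype. Rela rose 2.40-fold after 3 h in knockout cells (log2 change 1.26 ± 0.11 SE, adjusted p = 2.32e-05) and 2.26-fold in wildtype cells (1.18 ± 0.11, adjusted p = 5.01e-05). At 24 h the difference from untreated cells was 0.22 ± 0.11 in knockout (adjusted p = 0.129) and 0.26 ± 0.11 in wildtype (adjusted p = 0.0878), and neither passed. Under spike-in slope scaling these 24 h values turned to -0.14 and -0.26. From 3 h to 24 h it fell by 1.05 in knockout cells and by 0.92 in wildtype cells, both passing.

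Rel encodes c-Rel, a subunit of blood cells that in macrophages is needed for some cytokine genes. In knockout cells it stood at -4.50 and -4.58 untreated, -0.45 and -0.83 after 3 h and -3.67 and -3.15 after 24 h. In wildtype cells it stood at -4.47 and -4.43 untreated, -1.02 and -1.03 after 3 h and -3.77 and -3.86 after 24 h. The 3 times did not overlap in either genotype. Rel rose 14.9-fold after 3 h in knockout cells (3.90 ± 0.18, adjusted p = 5.92e-07) and 10.8-fold in wildtype cells (3.43 ± 0.18, adjusted p = 1.56e-06). At 24 h it was still 2.18-fold above untreated knockout cells (1.13 ± 0.18, adjusted p = 0.000743) and 1.55-fold above untreated wildtype cells (0.63 ± 0.18, adjusted p = 0.0171). The wildtype call at 24 h ended when any 1 of the 4 wildtype arrays was left out (adjusted p 0.0529 to 0.0818).

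Another probe, which the files name C030046G05, lies 4619 bases from the Rel probe on the same strand. In knockout cells it rose by 2.15 ± 0.11 after 3 h and stood 0.12 above untreated at 24 h (adjusted p = 0.375). In wildtype cells it rose by 2.20 ± 0.11 and stood 0.046 above untreated (adjusted p = 0.748). Its level and that of Rel had a Pearson r of 0.969 over the 12 arrays, which share slides and LPS times. Whether the 2 probes read 1 transcript was not tested.

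Relb encodes the subunit that pairs with p52 and with p100. In knockout cells its first probe stood at 2.18 and 1.92 untreated, 4.14 and 4.03 after 3 h and 2.58 and 2.50 after 24 h. Wildtype levels were 1.24 and 0.98 untreated, 3.88 and 3.92 after 3 h and 2.51 and 2.47 after 24 h. The untreated arrays were lowest in each genotype, and the untreated knockout arrays were both above the untreated wildtype arrays. Relb rose 4.10-fold after 3 h in knockout cells (2.03 ± 0.12, adjusted p = 2.17e-06) and 6.93-fold in wildtype cells (2.79 ± 0.12, adjusted p = 5.40e-07). At 24 h it was 1.40-fold above untreated knockout cells (0.49 ± 0.12, adjusted p = 0.00745) and 2.61-fold above untreated wildtype cells (1.38 ± 0.12, adjusted p = 3.53e-05). The knockout call at 24 h ended without the second untreated knockout array (0.36, adjusted p = 0.057), under spike-in slope scaling (0.31, adjusted p = 0.0584) and when only the compared groups were fitted (adjusted p = 0.05001).

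The second Relb probe gave the same picture. In knockout cells it stood at 1.32 and 1.13 untreated, 3.34 and 3.31 after 3 h and 1.67 and 1.54 after 24 h. In wildtype cells it stood at 0.39 and 0.19 untreated, 3.02 and 3.00 after 3 h and 1.61 and 1.60 after 24 h. Both probes had their lowest levels on the untreated wildtype arrays and the highest on the 3 h knockout arrays.

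Of the precursor genes, Nfkb1 encodes p105, which is cut to p50 and also binds the kinase TPL2. In knockout cells its first probe stood at 0.54 and 0.35 untreated, 3.48 and 3.00 after 3 h and 0.21 and 0.34 after 24 h. Wildtype levels were 0.23 and 0.07 untreated, 3.08 and 2.90 after 3 h and 0.24 and 0.17 after 24 h. The 3 h arrays stood clear of the others, and the 24 h wildtype arrays overlapped the untreated ones. Nfkb1 rose 6.95-fold after 3 h in knockout cells (2.80 ± 0.16, adjusted p = 1.88e-06) and 7.18-fold in wildtype cells (2.84 ± 0.16, adjusted p = 2.40e-06). At 24 h the difference from untreated was -0.17 ± 0.16 in knockout (adjusted p = 0.402) and 0.054 ± 0.16 in wildtype (adjusted p = 0.803).

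The second Nfkb1 probe, whose sequence is given above, stood in knockout cells at -0.40 and -0.38 untreated, 2.46 and 2.36 after 3 h and -0.69 and -1.25 after 24 h. On wildtype arrays it stood at -0.65 and -0.73 untreated, 1.96 and 1.78 after 3 h and -0.66 and -0.76 after 24 h. With every probe fitted on its own, this probe was lower at 24 h than in untreated knockout cells by 0.58 ± 0.17 (log2 change -0.58, adjusted p = 0.0154), where the first probe did not pass. The mean over both probes also passed there (-0.38, adjusted p = 0.0345). In wildtype cells its 24 h change was -0.018 (adjusted p = 0.94).

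Nfkb2, the gene of p100 and p52, rose at 3 h and was still higher at 24 h in both genotypes. In knockout cells it stood at 0.91 and 0.74 untreated, 4.22 and 4.07 after 3 h and 1.71 and 1.73 after 24 h. In wildtype cells it stood at 0.28 and 0.08 untreated, 3.75 and 3.76 after 3 h and 1.41 and 1.60 after 24 h. The 3 times did not overlap in either genotype, and the knockout arrays were above the wildtype arrays at each time. Nfkb2 rose 10.01-fold after 3 h in knockout cells (3.32 ± 0.11, adjusted p = 1.39e-07) and 11.9-fold in wildtype cells (3.57 ± 0.11, adjusted p = 1.17e-07). At 24 h it was 1.86-fold above untreated knockout cells (0.90 ± 0.11, adjusted p = 0.000192) and 2.50-fold above untreated wildtype cells (1.32 ± 0.11, adjusted p = 3.16e-05).

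**Figure D2:**
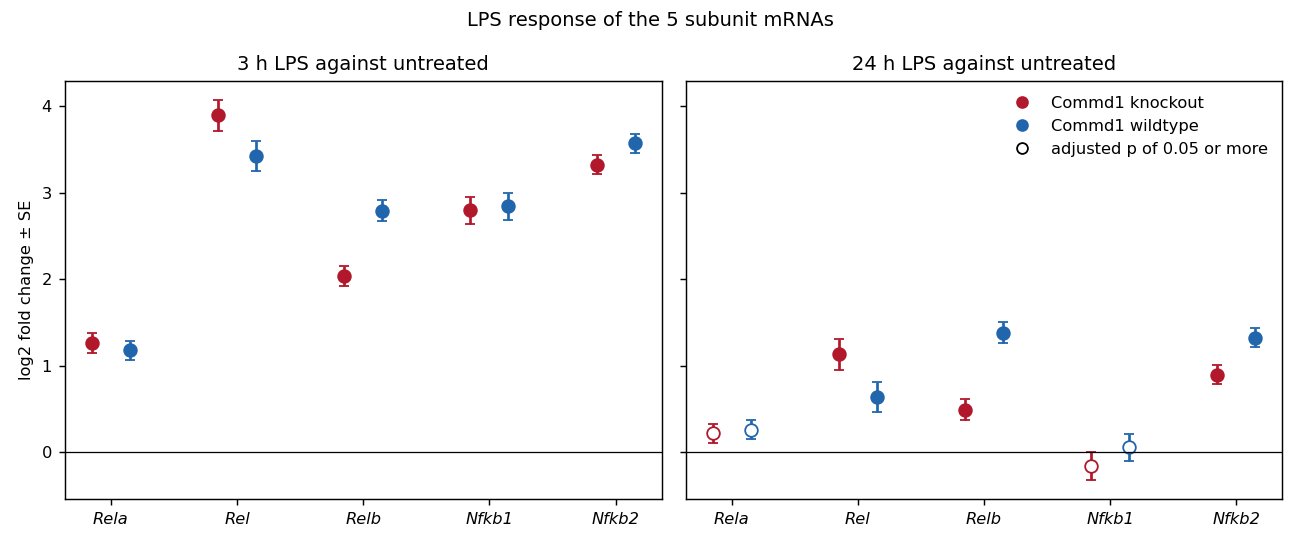
Log2 fold change ± SE (y axis) of each subunit (x axis) after 3 h and 24 h of LPS against untreated cells of the same genotype, knockout left of wildtype, from the fit on all 12 arrays. Filled points passed an adjusted p of 0.05. All 10 points at 3 h passed, between 1.18 and 3.90, and Rela and Nfkb1 did not pass at 24 h in either genotype.

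In untreated cells, Relb and Nfkb2 were higher in the Commd1 knockout, and the other 3 subunits did not pass. Relb was 1.92-fold higher (log2 difference 0.94 ± 0.12, 95% interval 0.67 to 1.21, adjusted p = 0.00825), with knockout arrays at 2.18 and 1.92 and wildtype arrays at 1.24 and 0.98. Its second probe differed by 0.93 ± 0.10 (adjusted p = 0.00505). Nfkb2 was 1.56-fold higher (0.64 ± 0.11, 95% interval 0.39 to 0.90, adjusted p = 0.0198), with knockout arrays at 0.91 and 0.74 and wildtype arrays at 0.28 and 0.08. These were 2 of 5 members, where 3.76% of all genes were higher in knockout, 3.07% were lower and 6.84% differed in either direction.

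Both untreated calls rest on few arrays. Without the first untreated knockout array Relb differed by 0.81 (adjusted p = 0.0561) and Nfkb2 by 0.56 (adjusted p = 0.147). Without the second untreated wildtype array Nfkb2 differed by 0.54 (adjusted p = 0.12), while Relb still passed (0.81, adjusted p = 0.0496). With only the 4 untreated arrays in the fit neither passed (adjusted p = 0.125 for Relb and 0.132 for Nfkb2), nor did any other gene. Under the 4 other scalings of the arrays both stayed higher in knockout and passed.

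Rela, the gene of the subunit whose turnover COMMD1 promotes, differed by 0.19 ± 0.11 in untreated cells (95% interval -0.07 to 0.44, adjusted p = 0.338), and knockout arrays lay just above wildtype arrays. Its sign turned to -0.17 under spike-in slope scaling. Nfkb1 differed by 0.29 ± 0.16 (interval -0.07 to 0.66, adjusted p = 0.291). Rel differed by -0.09 ± 0.18 (interval -0.49 to 0.32, adjusted p = 0.806), with knockout arrays at -4.50 and -4.58 and wildtype arrays at -4.47 and -4.43, and its sign turned to 0.25 under spike-in slope scaling.

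Some markers of macrophages and of other cells also differed in untreated cells, where 3.76% of all genes were higher in knockout and 3.07% lower. The 8 dendritic cell markers on the array, 5 of them above background on all arrays, summed to 3.09 to 3.32 in knockout and 5.92 to 6.41 in wildtype, but of the 7 that could be tested only Itgax, which encodes CD11c, passed (lower in knockout by 1.34 on the log2 scale), and the median difference was -0.11. The 5 B cell markers, 2 of them above background on all arrays, summed to 1.61 to 1.67 in knockout and 0.757 to 0.826 in wildtype, but only Cd79b passed (1.10 higher in knockout), and the median difference was 0.21. Of the 9 macrophage markers 1 was higher in knockout and 0 lower, with a median difference of 0.30. Within that list the high-affinity Fc receptor gene Fcgr1 was 0.60 higher in knockout. Of 6 tested granulocyte markers only S100a8 passed (-1.61), with a list median of -0.97. The granulocyte list summed to 20.55 to 21.17 in knockout and 21.95 to 23.32 in wildtype. Of 2 tested mast cell markers only Kit, also a progenitor receptor gene, passed (-1.37). Of 4 stromal markers only Dcn passed (0.95 higher), with a list median of 0.18. The stromal sums overlapped, at 1.977 to 3.296 in knockout and 2.061 to 2.397 in wildtype. The part of these markers in the Relb and Nfkb2 differences was not tested.

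After LPS no subunit differed between genotypes past the threshold. Over all genes, 5592 of 22978 had an unadjusted p under 0.05 in limma at 3 h and 4986 of 22976 at 24 h. At 3 h, 0 of 5 subunits passed in limma (2 at an unadjusted p under 0.05), where 1.68% of all genes did. Nfkb2 was nearest, with 4.22 and 4.07 on knockout arrays against 3.75 and 3.76 on wildtype arrays (0.40 ± 0.11, 95% interval 0.14 to 0.65, adjusted p = 0.0908). The other differences were 0.18 ± 0.12 for Relb, 0.25 ± 0.16 for Nfkb1, 0.27 ± 0.11 for Rela and 0.38 ± 0.18 for Rel. At 24 h, 0 of 5 passed (1 at an unadjusted p under 0.05), where 2.39% of all genes did, and the differences ran between 0.050 ± 0.12 for Relb (interval -0.22 to 0.32) and 0.41 ± 0.18 for Rel (interval 0.0018 to 0.81, adjusted p = 0.229). By the probe that stood for each gene, the arrays of the genotypes overlapped for Nfkb1 at 3 h and for Relb and Nfkb1 at 24 h. For the others the knockout arrays lay above the wildtype arrays. With 2 arrays per group such separation is weak evidence, and its share over all genes was not counted. Under spike-in slope scaling Relb turned to -0.10 at 3 h and -0.049 at 24 h and Rela to -0.16 and -0.051. Under the scaling as reported, the second Nfkb1 probe differed by 0.54 ± 0.17 at 3 h (limma, adjusted p = 0.106) and by -0.26 at 24 h. Its 3 h arrays did not overlap, with 2.46 and 2.36 in knockout against 1.96 and 1.78 in wildtype. The second Relb probe differed by 0.31 ± 0.10 at 3 h (limma, adjusted p = 0.123) and by 0.0028 at 24 h. Both second probes had an unadjusted p under 0.05 at 3 h and did not pass. Averaged over the 3 times of each mouse, 0 of 5 passed (3 at an unadjusted p under 0.05), and 0% of 22658 genes did, with 5531 at an unadjusted p under 0.05. In this limma test on 4 mouse means Commd1 itself did not pass (-2.99 ± 0.19, adjusted p = 0.127). The lack of calls there is therefore no sign that the subunits were alike.

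**Figure D3:**
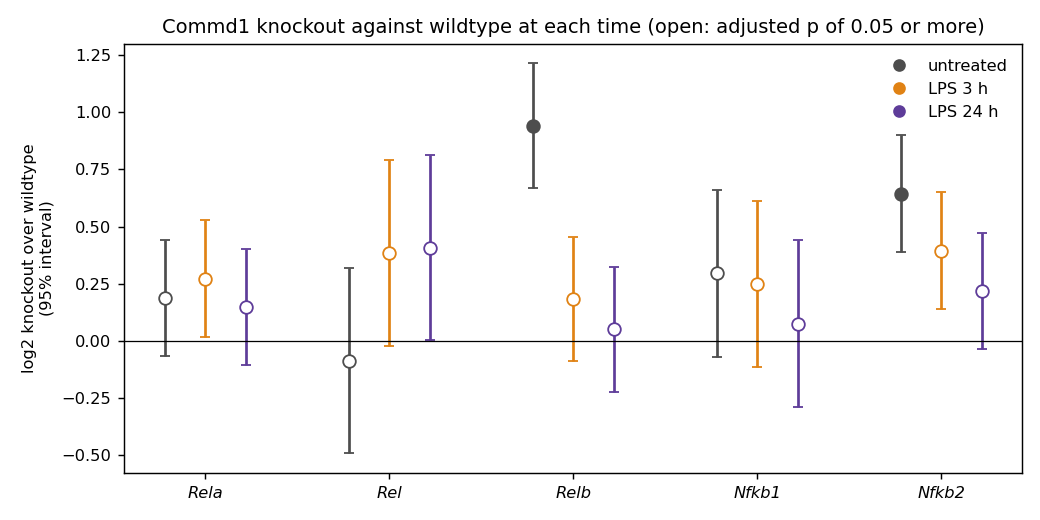
Log2 difference of each subunit between knockout and wildtype (y axis, above 0 is higher in knockout) with its 95% interval, in untreated cells and after 3 h and 24 h of LPS. Filled points passed an adjusted p of 0.05. They are Relb at 0.94 and Nfkb2 at 0.64, both in untreated cells.

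The LPS response itself was compared between genotypes by its difference, knockout minus wildtype, which contains the same 4 untreated arrays at both times. Relb had the largest difference of the 5 genes. Its 3 h response was smaller in knockout by 0.76 on the log2 scale (difference -0.76 ± 0.17, 95% interval -1.14 to -0.37, adjusted p = 0.133) and its 24 h response by 0.89 (difference -0.89 ± 0.17, interval -1.28 to -0.51, adjusted p = 0.0733), and neither passed. In limma 0 of 5 subunits passed at 3 h (1 at an unadjusted p under 0.05), where 0.0348% of all genes did. At 24 h 0 of 5 passed (2 at an unadjusted p under 0.05), where 0.326% of all genes did. Over all genes, 2856 of 22976 had an unadjusted p under 0.05 at 3 h and 3365 of 22974 at 24 h. The 24 h difference of Relb passed in 3 alternatives: under normexp background correction (-0.92, adjusted p = 0.0317), with only probes above background on all arrays (adjusted p = 0.0376) and with the second probe (-0.93, adjusted p = 0.0471). At 24 h Nfkb2 differed by -0.43 ± 0.16 (adjusted p = 0.27), Nfkb1 by -0.22 ± 0.22, Rela by -0.04 ± 0.16 and Rel by 0.49 ± 0.25.

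The genes that hold NF-kB back, activate it or answer to it were counted beside the subunits, in lists chosen with earlier results of these data known. Over all genes, 25.7% fell after 3 h in knockout and 23.4% in wildtype. The 6 IkB genes, which encode the inhibitors and the nuclear IkB-like proteins, all rose after 3 h of LPS in both genotypes, with medians of 3.41 in knockout and 3.86 in wildtype. Nfkbie rose by 5.04 ± 0.12 in knockout and by 5.32 ± 0.12 in wildtype cells. Nfkbia, the gene of IkBa, rose by 3.90 ± 0.11 in knockout and by 4.44 ± 0.11 in wildtype cells. At 24 h 4 of 6 were still higher in knockout and 5 of 6 in wildtype, and from 3 h to 24 h all 6 fell in both genotypes.

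In untreated cells 3 of the 6 IkB genes were higher in knockout and 0 lower, with a median of 0.42 (0.035 over all genes). Over all genes 3.76% were higher in untreated knockout cells and 3.07% lower. Bcl3, whose protein acts in the nucleus with p50 and p52, was 2.55-fold higher (1.35 ± 0.20, adjusted p = 0.0126). Nfkbia was 1.79-fold higher (0.84 ± 0.11, adjusted p = 0.00828). Nfkbiz, the gene of IkBzeta, was 1.44-fold higher (0.53 ± 0.12, adjusted p = 0.0432), a call that ended when any 1 of the 4 arrays was left out. The calls of Bcl3 and Nfkbia ended without the first untreated knockout array or the second untreated wildtype array. After 3 h and 24 h of LPS 0 of 6 differed between genotypes in limma (3 and 2 at an unadjusted p under 0.05). At that unadjusted cutoff stood 5592 of 22978 genes at 3 h and 4986 of 22976 at 24 h.

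The list of non-canonical activation was not split into genes that promote the pathway and genes that restrain it. Of its 9 genes, 3 were higher in untreated knockout cells and 0 lower, with a median of 0.021, beside 3.76% and 3.07% of all genes. They were Birc3 (1.05 ± 0.18, adjusted p = 0.0189) and Birc2 (0.46 ± 0.08, adjusted p = 0.0221), which encode the ligases cIAP2 and cIAP1, and Map3k14 (0.76 ± 0.14, adjusted p = 0.0221), which encodes NIK. After 3 h of LPS 7 of 9 rose in each genotype, and Map3k14 fell by 1.78 in knockout and by 1.05 in wildtype cells. Cd40, the gene of a receptor that signals through NIK, rose by 7.83 ± 0.14 in knockout and by 7.55 ± 0.14 in wildtype cells. These 3 untreated calls ended without the first untreated knockout array or without the second untreated wildtype array, and that of Birc2 also without the first wildtype array. Map3k14 did not pass with the mean over its probes (0.28, adjusted p = 0.136).

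Of 8 canonical activation kinases and adaptors 1 was higher in untreated knockout cells, beside 3.76% of all genes. It was Map3k8 (0.80 ± 0.15, adjusted p = 0.0252), which encodes TPL2, the kinase held by p105. Its call ended without the first untreated knockout array and without the second untreated wildtype array. After 3 h of LPS 7 of the 8 rose and 1 fell in knockout, and 5 rose and 1 fell in wildtype. Map3k8 rose by 2.55 ± 0.15 in knockout and by 3.14 ± 0.15 in wildtype cells, while Tab1 fell by 1.93 in knockout and by 1.33 in wildtype cells. The 3 genes of p105 partners, Map3k8, Tnip1 and Tnip2, all rose at 3 h in both genotypes.

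The ligases of IkB, p105 and p100 and the cofactors of RelA showed no genotype difference past the threshold at any time. In limma 0 of 6 ligases passed (0 untreated, 1 at 3 h and 2 at 24 h had an unadjusted p under 0.05). Of 8 cofactors 0 passed (1, 2 and 3). The unadjusted counts over all genes were 5718 of 22976 untreated, 5592 of 22978 at 3 h and 4986 of 22976 at 24 h. After 3 h of LPS Btrc, which encodes a receptor subunit of the IkB ligase, fell by 2.29 in knockout and by 1.82 in wildtype cells. Its paralog Fbxw11 rose by 1.76 ± 0.13 in knockout and by 1.32 ± 0.13 in wildtype cells. Of the 10 genes of RelA turnover 3 rose after 3 h in each genotype, Socs1 most (7.74 ± 0.10 in knockout and 7.07 ± 0.10 in wildtype). Of these 10 genes, Commd1 among them, Socs1 was also higher in knockout than in wildtype after LPS, 1.73-fold at 3 h (0.79 ± 0.10, adjusted p = 0.0402) and 2.00-fold at 24 h (1.00 ± 0.10, adjusted p = 0.00927). SOCS1 is a feedback inhibitor of cytokine signalling that is also part of a RelA ligase. Under spike-in slope scaling the 3 h difference of Socs1 was 0.40 and still passed. Its 3 h call ended without the first wildtype or the first knockout 3 h array.

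Of 20 NF-kB target genes, 20 rose after 3 h in knockout cells (median 5.46) and 19 in wildtype cells (median 5.17), where Bcl2l1 did not pass (0.50 ± 0.27). Il6, a cytokine gene not well above background in untreated cells, rose at least 1853-fold in knockout and at least 2351-fold in wildtype cells. Such bounds set the dim group at the lowest signal among probes above background. In untreated cells 3 were higher in knockout and 3 lower, with a median of 0.0013, beside 3.76% and 3.07% of all genes. Il1b, the gene of interleukin-1 beta, was 18.2-fold higher (4.19 ± 0.35, adjusted p = 0.00222), Ier3 3.46-fold higher (1.79 ± 0.20) and Irf1 1.74-fold higher (0.80 ± 0.15). The chemokine genes Ccl4 (-1.73 ± 0.25) and Ccl3 (-1.33 ± 0.22) and the survival gene Bcl2l1 (-1.31 ± 0.27) were lower. After 3 h of LPS 0 of 20 differed between genotypes (2 at an unadjusted p under 0.05, beside 5592 of 22978 genes). After 24 h the neutrophil chemokine gene Cxcl2 was lower in knockout (-1.70 ± 0.23, adjusted p = 0.0183, and -0.72 under normexp background correction, still passing), and Cxcl1, not well above background there, was at least 1.48-fold lower (adjusted p = 0.0242). The calls of Irf1, Ccl3 and Bcl2l1 ended without the first untreated knockout array or the second untreated wildtype array, that of Ccl4 without this wildtype array, and those of Cxcl1 and Cxcl2 without either 24 h wildtype array. The Cxcl1 call also ended without the first 24 h knockout array (-1.61), under normexp background correction (-0.24, adjusted p = 0.192) and under spike-in slope scaling (-1.61). Under spike-in slope scaling the untreated differences of Irf1 (0.50) and Nfkbiz (0.84) still passed. With no filter on dim probes, and so with more genes tested, Nfkbiz, Birc2, Map3k14, Map3k8, Irf1, Bcl2l1, Cxcl1 and the 3 h value of Socs1 no longer passed. The 3 h difference of Commd1 itself also no longer passed there (-2.92, adjusted p = 0.0658). Irf1 and Bcl2l1 did not pass with the mean over their probes, nor did Nfkbiz with the percentile over detected probes.

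**Figure D4:**
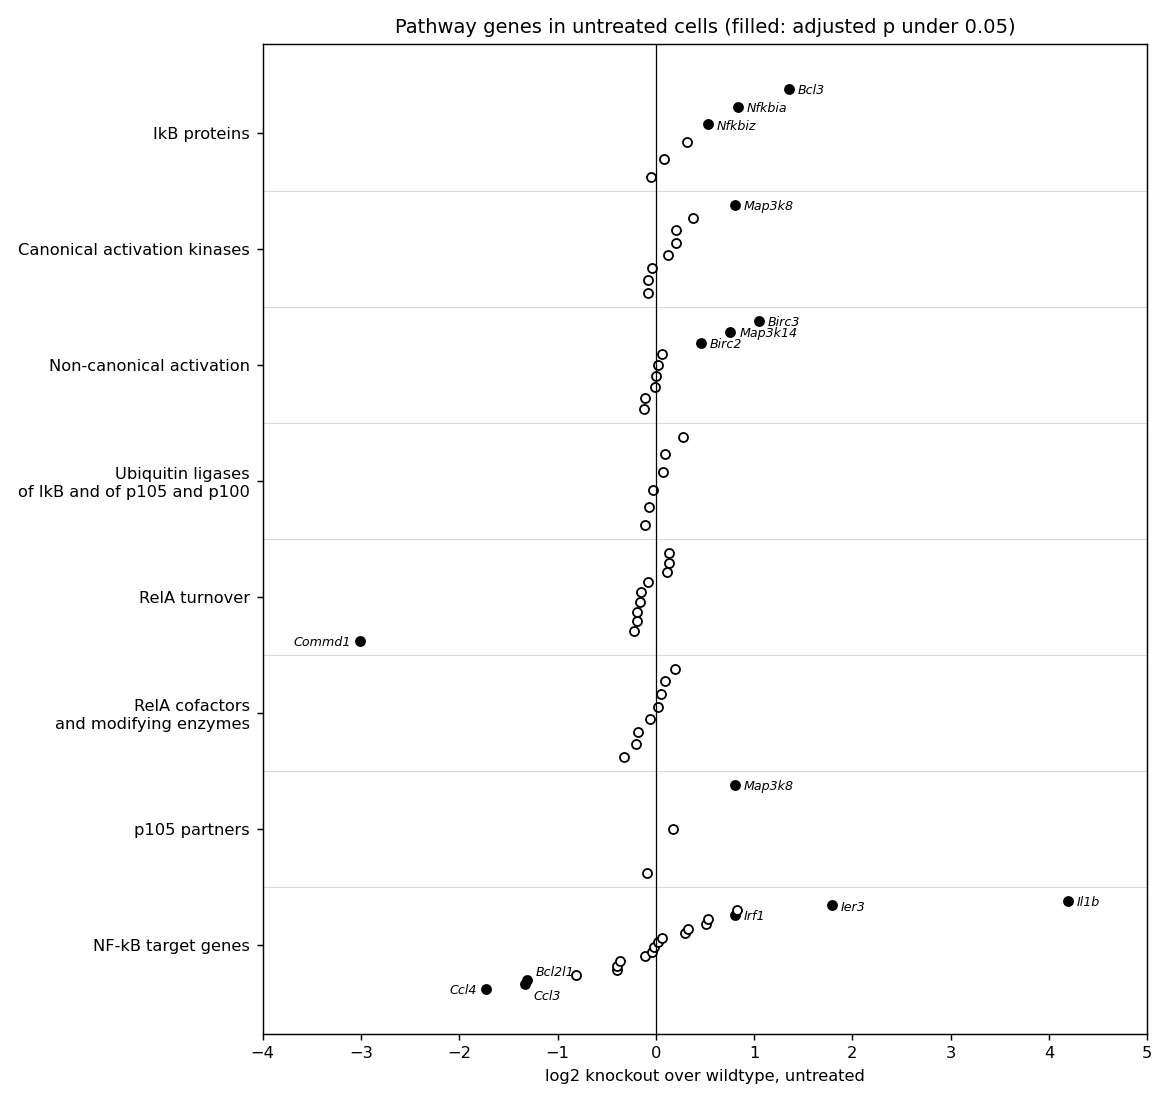
Log2 difference between untreated knockout and wildtype cells (x axis, above 0 is higher in knockout) of every gene in the 8 pathway lists (rows). Filled and named points passed an adjusted p of 0.05. Outside Commd1 and 3 target genes, each filled point lies above 0, between 0.46 for Birc2 and 4.19 for Il1b.

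Rel and Commd1 lie on the same chromosome, with their probes 785 kb apart on chromosome 11, so genes around them were read as well. Of 25 other tested genes between the probes or within 1000 kb beyond them, 1 was higher and 2 were lower in untreated knockout cells. Over all genes 3.76% were higher and 3.07% lower. They were Zrsr1 (0.46 ± 0.11), Xpo1 (-0.43 ± 0.09) and 0610010F05Rik (-0.74 ± 0.09). After 3 h of LPS 0 of 25 differed past the threshold in limma (5 at an unadjusted p under 0.05), beside 1.68% of all genes. After 24 h 1 did, Pex13 (0.49 ± 0.10, higher in knockout), beside 2.39% of all genes. At an unadjusted p under 0.05 there were 11 of 25 at 24 h and 6 of 25 in untreated cells. The unadjusted counts over all genes were 5718 of 22976 untreated, 5592 of 22978 at 3 h and 4986 of 22976 at 24 h. Rel itself did not pass at any of the 3 times.

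**Figure D5:**
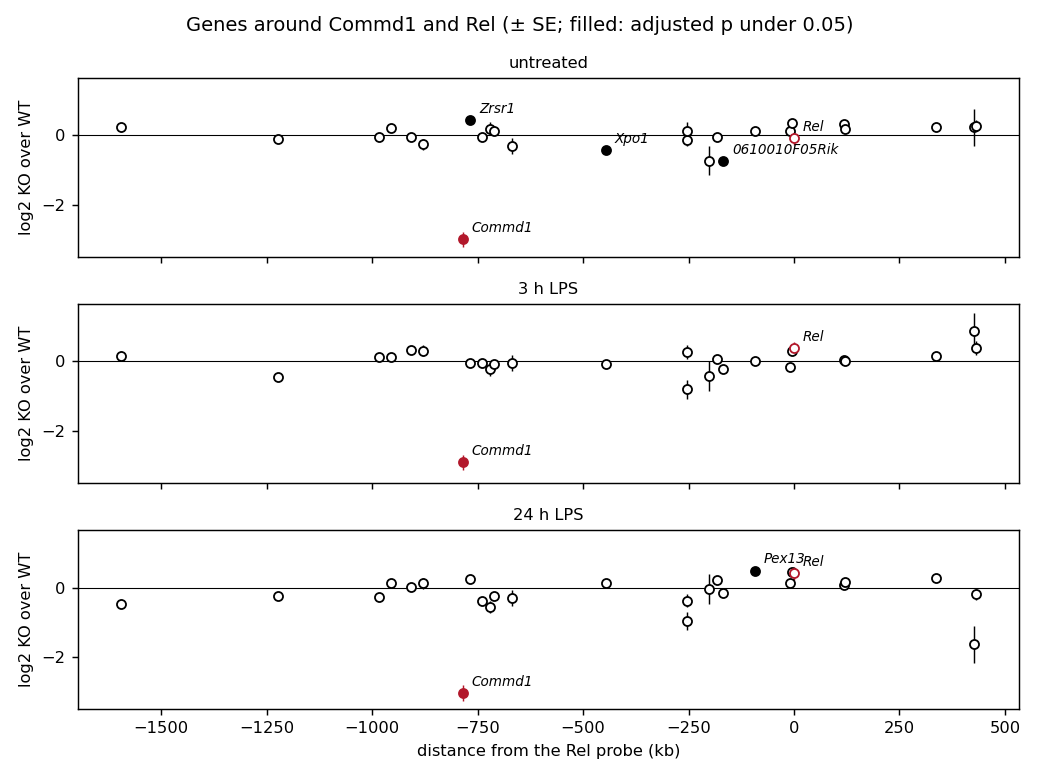
Log2 difference between knockout and wildtype ± SE (y axis) of the 27 tested genes around Commd1 and Rel, by the distance of their probe from the Rel probe in kb (x axis), in untreated cells and after 3 h and 24 h of LPS. Filled points passed an adjusted p of 0.05. Commd1 lies near -3 at each time, and Rel, in open red, does not pass.

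Levels of the 5 subunits followed each other over the 12 arrays, with Pearson r between 0.897 (Relb and Nfkb1) and 0.986 (Relb and Nfkb2). These points share slides, mice and LPS times, so the values are a description. Among 14633 genes above background on all arrays and matched to the reference, the pattern most like that of Rela was that of Tmem39a (r = 0.995), then Crtc2 and Socs7. For Relb it was Map3k8 (r = 0.995), then Il1b and Olfr1564. For Rel it was Hivep2 (r = 0.997), then Ube2z and Wdr37. For Nfkb1 it was Foxp4 (r = 0.998), then Mark2 and Mtmr14, and for Nfkb2 it was Orai2-ps (r = 0.996), then Ift57 and Gm12216. Map3k8 and Il1b were picked for their likeness to Relb on arrays that include the untreated cells. That they too were higher in untreated knockout cells is therefore no separate result.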

How the data were processed

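RNA of 12 samples was hybridised to 12 single-colour arrays. Per the file headers and the submitters' processing notes, the authors' scanner files (Agilent Feature Extraction 10.7.3.1) give a processed intensity per spot, background-subtracted and detrended within the array but not scaled between arrays, besides raw mean and background intensity. Values in the authors' table are log2. Set against the scanner files, they matched the processed signals less 1 constant per array for 99.5% to 100% of probes (within 0.01), so that neither centring of genes nor a ratio was found, and the column medians lay between -4.50 and -4.30.

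Control and outlier spots were left out, spots of a probe averaged, and log2 values reduced by the array's 75th percentile. Gene names came from RefSeq tables for 78.6% of 39429 probes and otherwise from the files. A probe was kept if some group had it well above background on its 2 arrays (28426 probes), and the brightest stood for its gene (22978 genes; a few lack a value in some comparisons because of outlier flags). limma 3.58.1 in R 4.3.3 fitted 6 group means to all 12 arrays (6 residual and 2.23 prior degrees of freedom), with p-values adjusted by Benjamini-Hochberg across genes (threshold 0.05), and ± gives the standard error in log2 units. Genotype over times was tested on 4 mouse means. Python 3.11.15 with pandas 2.3.3 and matplotlib 3.10.9 made tables and figures.

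The same replicate number within a genotype is the same mouse, per the labels. Deviations from group means correlated within a mouse in all pairs of times, by 0.122 to 0.352 in knockout and by 0.128 to 0.189 in wildtype. Each mouse kept the same position on every slide, so mouse and position cannot be told apart in these correlations. The members and gene lists were chosen with earlier results of these data known. Named genes were the 5 members, Commd1, at most 3 passing genes per list for LPS, at most 6 per list between genotypes, and 3 genes most like each member. The probe near that of Rel, the chromosome neighbours, the marker genes and single genes outside this rule were named after their values were seen. Alternatives changed the percentile, normalization, background correction, spike-in scale, filter, probe choice, value table, arrays in the fit and replicate block, and left out each array in turn.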

Additional observations from a re-analysis of the deposited data

Results flagged for a closer look

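The 24 h LPS response differed between genotypes, by the test of the difference itself, in 3 readouts. Il1b differed by -4.69 ± 0.50 on the log2 scale, knockout minus wildtype (adjusted p = 0.0279). Ier3 differed by -1.88 ± 0.28 (adjusted p = 0.0488). The second Relb probe, with every probe fitted on its own, differed by -0.93 ± 0.14 (adjusted p = 0.0471), while the first Relb probe did not pass. In each case the untreated knockout level, which enters the difference, was above the untreated wildtype level. The second Relb probe was not refitted with arrays left out. Leaving out 1 array at a time ended the call of Il1b in 3 of 8 cases and that of Ier3 in 7 of 8. Both calls also ended with no filter on dim probes (adjusted p = 0.0718 for Il1b and 0.112 for Ier3) and with only the groups compared (0.0947 and 0.107), and that of Ier3 with the mean over probes (0.0507).

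The first 24 h knockout array had 589 outlier spots, against 132 to 214 on the other 11 arrays, the lowest share of probes above background (59.2%) and the highest spike-in slope (0.869) of the 12 arrays. Without it the 24 h response difference passed in 239 genes, against 75 with it. With 2 arrays a group, no formal search within groups for an array standing apart was made.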

How the results depend on the processing

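Over 614 alternative values of the 5 subunits, 587 kept direction and side of the threshold, 4 no longer passed, 5 newly passed and 18 changed sign, none of those having passed. Over 280 values with 1 array left out, 261 kept both, 8 no longer passed and 11 changed sign.

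The 2 subunits that passed in untreated cells were 0 when only the groups compared were fitted and 0 to 2 with 1 array left out, and the 0 that passed for the 24 h response difference was 1 under normexp, 1 with probes above background on all arrays and 1 with the other probes. With the mouse as replicate block no subunit changed its call: the pairing gave Relb an adjusted p of 0.0603 for the 24 h response difference and, as a random block, 0.0073 in untreated cells.

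Signs turned under spike-in slope scaling for Rela at 24 h of LPS (-0.14 in knockout, -0.26 in wildtype), Rela between genotypes (-0.17 untreated, -0.16 at 3 h, -0.051 at 24 h, -0.13 over times) and in the 24 h response difference (0.12), for Relb between genotypes at 3 h (-0.10) and 24 h (-0.049) and for Rel untreated (0.25). They also turned for Relb at 24 h under quantile normalization (-0.011), Rel untreated under normexp (0.011) and Nfkb1 in wildtype at 24 h with the percentile over detected probes (-0.039). Nfkb1 turned with the mean over its probes and with its other probe at 24 h between genotypes (-0.094 and -0.26) and in the 3 h response difference (0.10 and 0.24), and with its other probe at 24 h in wildtype (-0.018). With 1 array left out, response differences ran for Rela between -0.014 and 0.19 at 3 h and between -0.13 and 0.054 at 24 h and for Nfkb1 between -0.28 and 0.19 at 3 h, and Nfkb1 at 24 h in wildtype between -0.022 and 0.13. The cause was not tested.

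Counts of all genes passing moved most between genotypes: 1571 untreated (0 with only the groups compared, 6385 under spike-in scaling, 152 without the first knockout array), 387 at 3 h (0 to 5305, and 22 to 2929 with 1 array left out, lowest without the first and highest without the second 3 h knockout array), 549 at 24 h (0 to 947, left out 60 to 791, lowest without the first 24 h wildtype array), and for the response differences 8 at 3 h (0 to 106, left out 0 to 371, highest without the second 3 h knockout array) and 75 at 24 h (0 to 246, left out 4 to 239, lowest without the first untreated and highest without the first 24 h knockout array) and 0 for the mean over times (286 under normexp, 1495 without the second knockout mouse). With the mouse as replicate block the response differences passed in 1 and 151 genes. Scalings moved the median of all genes to between -0.19 and 0.22 over the LPS comparisons and to 0.14 in untreated cells under spike-in scaling (0.035 as reported), and the share of passing genes that were higher to 65% there (55.1% as reported), 44.9% at 3 h (63.3%) and 50.7% at 24 h (30.1%).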
